A study of Mus musculus with 9 samples.

Results

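The 10 genes described here are a part of the Notch pathway as the array measured it in mouse myoblasts: the receptors Notch1, Notch2 and Notch3, the ligands Dll1, Jag1 and Jag2, and the transcription factors Hes1, Hes6, Hey1 and Heyl. They were chosen by symbol, with earlier results of these data known. Each was represented by 1 probe set carrying a single symbol, out of 19661 genes measured. All 10 were found. Cultured myoblasts of Balb/c background, of skeletal muscle origin, were kept in F10 medium containing 20% serum (fetal bovine) and 4 ng/ml of basic fibroblast growth factor. Total RNA of each sample was hybridised to 1 array, giving 9 arrays: 3 of cells with an empty vector, titled CTAP control and called control here, 3 of cells overexpressing Pax3 and 3 of cells overexpressing Pax7. Pax3 and Pax7 are related transcription factors that bind DNA through a paired domain and a homeodomain, and both act in muscle precursors. The labels give no animal age, and they do not say whether the cells were a clone, which promoter drove the constructs, or whether the 3 samples of a group were separate cultures. The p-values cover only the spread among those samples, and that spread may be technical. Sex-linked genes, given below, read as male in the control cells and as female in both sets of Pax cells.

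Notch signalling passes between touching cells. A ligand of the Delta or Jagged family on one cell binds a Notch receptor on its neighbour, proteases release the receptor's intracellular domain, and that domain joins the DNA-binding protein Rbpj to switch on target genes, among them the Hes and Hey repressors. In skeletal muscle the pathway is known for keeping satellite cells, the stem cells of the tissue, quiescent and undifferentiated, and for holding back the differentiation of myoblasts.

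Promoter sequences are shown for Notch3 and Dll1, the receptor and the ligand with the largest differences between control and Pax arrays, and for Hes6, the member with the smallest. They span 250 bases before to 50 bases after each start site (RefSeq, build GRCm38.p6), and 7 of the 10 members matched the table, with 9 start sites between them. Hes1, Hey1 and Heyl did not match. Capitals mark matches to any of 3 motifs on either strand: the Rbpj core TGGGAA, the E-box CAGCTG that myogenic factors can bind, and the paired-domain core GTCACG. The motifs were chosen after the sequences had been seen. The lines give Notch3 at chr17:32166841-32167140, the first Dll1 start site at chr17:15375774-15376073 and the second at chr17:15376883-15377182, then the first Hes6 start site at chr1:91413989-91414288 and the second at chr1:91413173-91413472, all on the minus strand and written 5′ to 3′.
Notch3: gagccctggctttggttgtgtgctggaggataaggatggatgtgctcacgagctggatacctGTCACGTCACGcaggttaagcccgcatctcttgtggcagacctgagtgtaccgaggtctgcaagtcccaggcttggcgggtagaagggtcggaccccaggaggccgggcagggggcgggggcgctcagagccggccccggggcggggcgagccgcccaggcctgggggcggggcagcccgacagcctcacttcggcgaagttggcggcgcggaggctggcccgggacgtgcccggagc
Dll1, first start site: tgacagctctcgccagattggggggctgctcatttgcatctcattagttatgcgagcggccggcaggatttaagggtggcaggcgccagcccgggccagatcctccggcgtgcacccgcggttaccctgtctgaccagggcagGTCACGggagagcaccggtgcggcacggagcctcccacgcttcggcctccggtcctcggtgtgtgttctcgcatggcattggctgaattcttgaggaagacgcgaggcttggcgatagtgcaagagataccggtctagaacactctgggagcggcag
Dll1, second start site: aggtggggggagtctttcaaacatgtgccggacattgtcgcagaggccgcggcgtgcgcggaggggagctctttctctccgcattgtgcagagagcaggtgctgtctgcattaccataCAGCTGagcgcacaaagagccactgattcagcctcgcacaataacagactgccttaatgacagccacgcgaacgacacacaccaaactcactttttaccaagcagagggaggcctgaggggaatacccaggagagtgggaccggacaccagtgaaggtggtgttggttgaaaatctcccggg
Hes6, first start site: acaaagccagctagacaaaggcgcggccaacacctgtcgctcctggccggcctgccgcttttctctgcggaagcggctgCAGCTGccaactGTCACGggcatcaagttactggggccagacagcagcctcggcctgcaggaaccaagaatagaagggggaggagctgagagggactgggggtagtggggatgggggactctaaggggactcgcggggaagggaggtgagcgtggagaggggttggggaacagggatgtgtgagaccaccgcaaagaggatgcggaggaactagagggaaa
Hes6, second start site: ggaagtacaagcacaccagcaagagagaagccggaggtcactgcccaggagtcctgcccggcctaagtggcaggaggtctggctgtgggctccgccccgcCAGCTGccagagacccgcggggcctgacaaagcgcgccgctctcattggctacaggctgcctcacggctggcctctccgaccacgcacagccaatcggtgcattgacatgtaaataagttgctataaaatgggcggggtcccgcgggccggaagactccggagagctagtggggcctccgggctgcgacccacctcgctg

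The letters GTCACG occurred in the Notch3 window at 188 and 183 bases before the start site, in copies that share a base, at 107 bases before the first Dll1 start site and at 159 bases before the first Hes6 start site. Those letters stood in 8.22% of 32851 promoter windows of 300 bases. The E-box letters CAGCTG lay in the second Dll1 window, in both Hes6 windows and in the Jag1 window, against 16.3% of all windows. The Rbpj core, found in 25.6% of all windows, had no match in the 9 windows. The windows of Notch1, Notch2 and Jag2 held none of the 3. The 9 windows had 55.7% to 86.0% G and C, beside a median of 52.7% over all windows. The shares over all windows were thus not matched for base composition. The paired-domain letters were missing from the second Dll1 and the second Hes6 window, and the arrays do not show which start site the cells used. Any link between these letters and the differences between the groups was not tested. A match describes letters only, and the arrays carry no binding data.

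Values were log2 intensities, and the array medians, which the normalisation makes nearly equal, lay between 6.397 and 6.477. The number of arrays limits their precision. The values carry no detection calls, so a low reading cannot be told from background, and a probe set at background cannot fall. The overexpressed genes followed the labels: Pax3 read 5.78 to 5.91 in control, 11.01 to 11.10 in Pax3 and 6.80 to 6.87 in Pax7 arrays, and Pax7 read 10.45 to 10.60, 8.14 to 8.26 and 12.25 to 12.31 in the same order, lowest in the Pax3 arrays. The probe sets do not separate a cell's own transcripts from those of the construct. All 6 myoblast markers averaged 9.40 or more in every group, and Myod1, a master regulator of myogenesis, averaged 12.62 (control), 12.50 (Pax3) and 12.18 (Pax7). They were not steady: Myf5 averaged 9.40, 11.37 and 11.42 in the same order, and Des 12.13, 11.62 and 10.80. Against control, 1 of the 6 rose and 3 fell in Pax3 arrays, and 1 rose and 4 fell in Pax7 arrays. These shares of 66.7% and 83.3% called stood beside 39.6% and 43.2% of all genes. Sex-linked genes separated control arrays from the rest: Xist, made from the inactive X chromosome, averaged 4.77 (control), 11.96 (Pax3) and 11.72 (Pax7), and the Y-linked Eif2s3y 8.78, 3.12 and 3.08. The Y-linked Uty and Kdm5d were likewise high in control and low in both Pax groups. Control arrays thus showed the pattern of male cells, and both Pax groups that of female cells. In the comparisons against control, overexpression and this difference between the cells cannot be told apart. The Pax7 minus Pax3 difference was -0.24 for Xist and -0.04 for Eif2s3y.

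**Figure D1:**
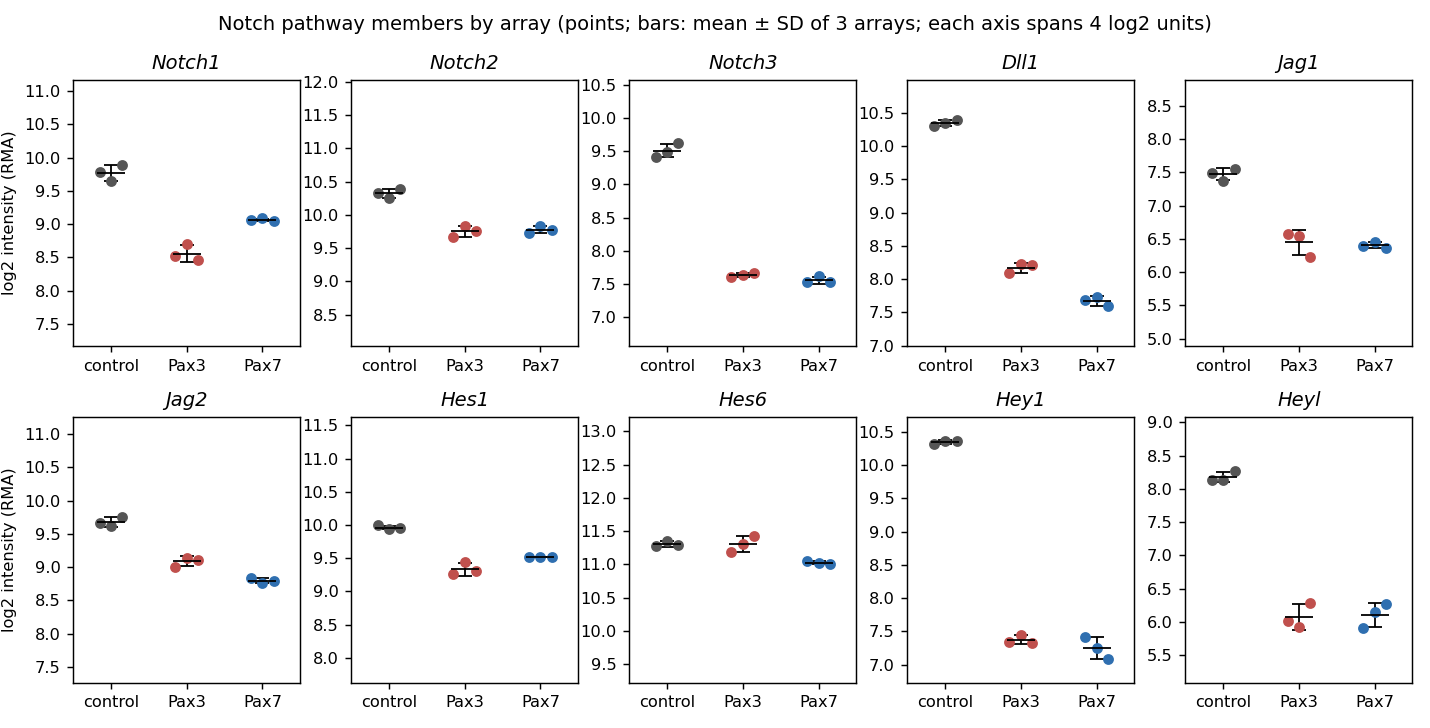
Log2 intensity of each of the 10 members in each of the 9 arrays (points), with the mean and SD of 3 arrays per group; each panel spans the same number of log2 units. Control arrays sit highest in 9 of the panels, and in Hes6 the control and Pax3 arrays overlap.

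All 3 receptors were lower in Pax3 than in control arrays and lower in Pax7 than in control arrays. Notch3, a receptor of satellite cells and of the mural cells of vessels, changed most, by -1.87 ± 0.056 on the log2 scale in Pax3 arrays (moderated SE, 3 arrays per group, 3.66-fold lower) and by -1.95 ± 0.056 in Pax7 arrays (3.86-fold lower). Notch1 was 2.32-fold lower in Pax3 arrays and 1.63-fold lower in Pax7 arrays, and Notch2 was 1.48-fold and 1.46-fold lower. These contrasts share the control arrays and are not independent of each other. All 3 receptors passed limma's moderated test in both (adjusted p of at most 1.07e-05).

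Notch3 read 9.41, 9.49 and 9.61 in the control arrays, 7.60, 7.64 and 7.67 in the Pax3 arrays and 7.53, 7.62 and 7.53 in the Pax7 arrays. The control arrays lay far above the others, and Pax3 and Pax7 arrays overlapped. The Pax7 against Pax3 difference in Notch3 was -0.08 (95% interval -0.20 to 0.05, limma adjusted p = 0.448). Notch1, the receptor that responds to Dll1 in many tissues, read 9.78, 9.64 and 9.88 in control, 8.52, 8.69 and 8.45 in Pax3 and 9.06, 9.08 and 9.05 in Pax7 arrays. Here the 3 groups formed separate steps, with Pax3 arrays lowest. Notch1 was 1.42-fold higher in Pax7 than in Pax3 arrays (0.51 ± 0.072, limma adjusted p = 0.000564), but it did not pass once a difference above 1.2-fold was required (limma treat, adjusted p = 0.0759). Notch2, a receptor that with Notch1 keeps satellite cells quiescent, read 10.32, 10.26 and 10.39 in control, 9.67, 9.83 and 9.76 in Pax3 and 9.72, 9.83 and 9.77 in Pax7 arrays. Its Pax3 and Pax7 arrays spanned almost the same values, with a difference of 0.02 (95% interval -0.10 to 0.14, limma adjusted p = 0.877).

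The ligands were also lower in both sets of Pax arrays, and Dll1 moved furthest. Dll1, the Delta ligand that myogenic cells present to their neighbours, was 4.53-fold below control in Pax3 arrays (-2.18 ± 0.055) and 6.41-fold below it in Pax7 arrays (-2.68 ± 0.055). Jag1, a Jagged ligand, was 2.03-fold and 2.09-fold lower, and its relative Jag2 1.51-fold and 1.84-fold lower. All 3 passed in both contrasts (limma adjusted p of at most 5.43e-06).

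Dll1 read 10.31, 10.35 and 10.40 in control, 8.09, 8.23 and 8.21 in Pax3 and 7.69, 7.74 and 7.59 in Pax7 arrays. The groups did not overlap, and Pax7 arrays were lowest, 1.42-fold below Pax3 arrays (-0.50 ± 0.055, limma adjusted p = 8.56e-05). Notch1 and Dll1 therefore differed between Pax7 and Pax3 arrays by the same fold in opposite directions: the receptor was lower in Pax3 arrays and the ligand lower in Pax7 arrays. Jag2 read 9.66, 9.61 and 9.76 in control, 9.00, 9.15 and 9.11 in Pax3 and 8.84, 8.76 and 8.79 in Pax7 arrays. Jag2 followed the order of Dll1 in smaller steps and was 1.22-fold lower in Pax7 than in Pax3 arrays (-0.29 ± 0.054, limma adjusted p = 0.0034), a difference that did not pass treat at 1.2-fold (adjusted p = 1). Jag1 read 7.50, 7.37 and 7.55 in control, 6.58, 6.54 and 6.23 in Pax3 and 6.40, 6.46 and 6.37 in Pax7 arrays. One Pax3 array was below and the others above all Pax7 arrays, and the difference was -0.04 (95% interval -0.23 to 0.15, limma adjusted p = 0.831). The Jag1 means of 6.45 (Pax3) and 6.41 (Pax7) lay near the array medians, and without detection calls they cannot be told from background.

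Among the transcription factors, the Hey genes differed most, Hes1 less and Hes6 least. Hey1, a repressor that Notch induces in many cell types, was 7.85-fold below control in Pax3 arrays (-2.97 ± 0.073) and 8.55-fold below it in Pax7 arrays (-3.10 ± 0.073). Heyl, its close relative, was 4.29-fold and 4.20-fold lower (-2.10 and -2.07, each ± 0.105). Hes1, the widely expressed Hes repressor, was 1.55-fold and 1.36-fold lower. Hes6, a family member that opposes Hes1 and favours differentiation, was -0.0039 ± 0.060 from control in Pax3 arrays, which did not pass, and 1.22-fold lower in Pax7 arrays.

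Hey1 read 10.32, 10.36 and 10.36 in control, 7.34, 7.45 and 7.33 in Pax3 and 7.41, 7.25 and 7.09 in Pax7 arrays. Control arrays were nearly identical, and Pax3 and Pax7 arrays overlapped well below them, with a difference of -0.12 between the Pax groups (95% interval -0.28 to 0.04, limma adjusted p = 0.332). Heyl read 8.13, 8.14 and 8.26 in control, 6.02, 5.92 and 6.29 in Pax3 and 5.90, 6.14 and 6.27 in Pax7 arrays. Its Pax3 and Pax7 arrays covered one range, with a difference of 0.03 (95% interval -0.20 to 0.27, limma adjusted p = 0.893). Heyl averaged 6.07 and 6.11 there, below the array medians of 6.397 to 6.477. If these readings are near background, a larger fall or a difference between the Pax groups may not be measurable. Hey1 and Heyl passed in both contrasts against control (limma adjusted p of at most 3.87e-08).

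Hes1 read 9.996, 9.941 and 9.95 in control, 9.26, 9.44 and 9.30 in Pax3 and 9.53, 9.52 and 9.52 in Pax7 arrays. The 3 groups did not overlap, with Pax3 arrays lowest, as in Notch1. Against control, Hes1 passed in Pax3 and in Pax7 arrays (limma adjusted p of 1.98e-06 and 2.99e-05). Hes1 was 1.14-fold higher in Pax7 than in Pax3 arrays (0.19 ± 0.051, limma adjusted p = 0.0271), and the call ended without Pax3 replicate 1 (adjusted p = 0.102), Pax3 replicate 3 (0.052), Pax7 replicate 1 (0.0791), Pax7 replicate 2 (0.0797) or Pax7 replicate 3 (0.079), and with the arrays centred on their medians (0.059), the 2 groups fitted alone (0.0629) or treat at 1.2-fold (1).

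Hes6 read 11.28, 11.36 and 11.29 in control, 11.18, 11.30 and 11.43 in Pax3 and 11.04, 11.03 and 11.01 in Pax7 arrays. Control and Pax3 arrays overlapped, and all Pax7 arrays were below both. The Pax3 against control difference had a 95% interval of -0.14 to 0.13 (limma adjusted p = 0.97), so a fall of the size seen in Hes1 lies outside it. In Pax7 arrays Hes6 was -0.28 ± 0.060 from control (limma adjusted p = 0.00248) and -0.28 ± 0.060 from Pax3 arrays (adjusted p = 0.00793). Both Hes6 calls ended under treat at 1.2-fold (adjusted p = 1).

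**Figure D2:**
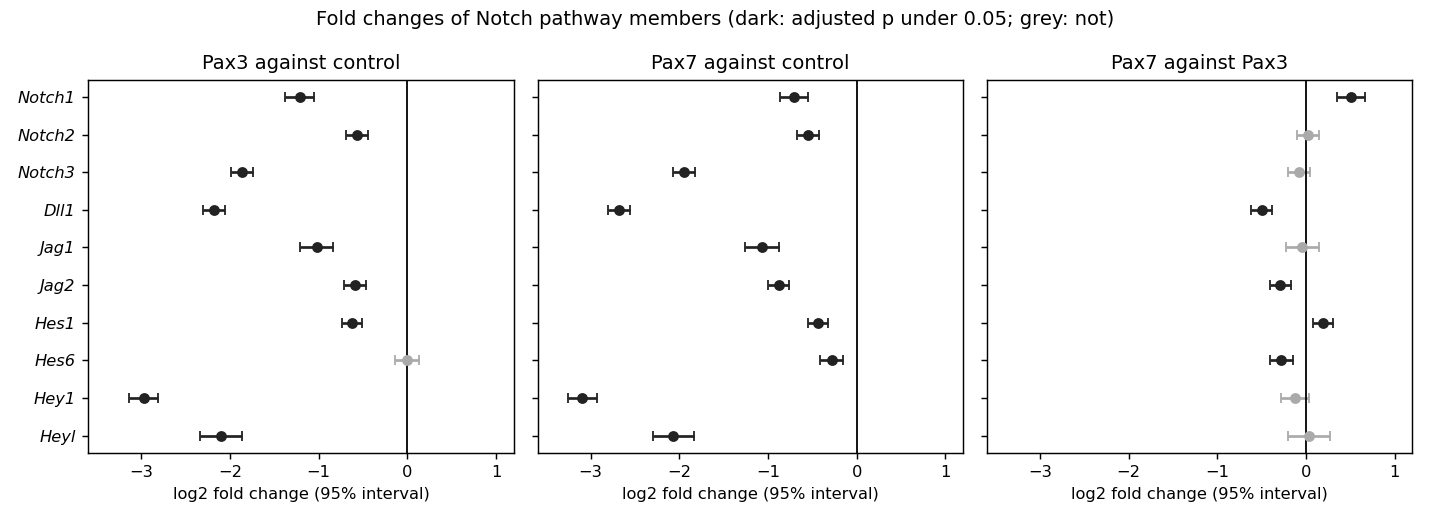
Log2 fold change of each member with its 95% interval in the 3 comparisons; dark points passed an adjusted p of 0.05 and grey points did not. All points against control lie below 0, with Hes6 in Pax3 arrays nearest to it (-0.0039), while the Pax7 against Pax3 values lie between -0.50 and 0.51.

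The members were chosen with earlier results of these data known, so their counts beside those of all genes are descriptive and test nothing. All 10 averaged 7.47 or more in control arrays, above the array medians, while low-reading genes stayed among all genes. Counted over the group, 9 of the 10 members fell in Pax3 arrays and 0 rose, where 39.6% of all genes passed in either direction, 19.7% falling and 19.8% rising. The same 9 did not overlap between the groups, as 45.1% of all genes did not. The median log2 fold change of the members was -1.12, against 0.0157 over all genes, and 6 members fell by 1 log2 unit or more, which 2.51% of all genes did. In Pax7 arrays, 10 of 10 fell and 0 rose, where 43.2% of all genes passed, 21.5% falling and 21.6% rising. In all 10 the groups did not overlap, as in 55.5% of all genes. Their median was -0.973, against 0.0274 over all genes, and 5 fell by 1 log2 unit or more (3.29% of all genes). Between Pax7 and Pax3 arrays, 5 of 10 members passed, 2 higher (Notch1 and Hes1) and 3 lower (Dll1, Jag2 and Hes6), where 16.9% of all genes passed, 8.33% higher and 8.54% lower. These 5 did not overlap between the groups, as 29.4% of all genes did not. The median there was -0.0589. A difference of 1 log2 unit or more was seen in 0 members, and upward in 0.565% and downward in 0.331% of all genes. With arrays centred on their medians, 1 was higher and 3 were lower, since Hes1 no longer passed. With treat at 1.2-fold, 1 passed, which was Dll1.

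The arrays that differed in the Notch genes differed as well in markers of differentiated muscle. All 10 such markers (Myog, Mymk, Myh3, Myh1, Ckm, Acta1, Tnnt1, Tnnt3, Actn2 and Ttn) fell in Pax3 and in Pax7 arrays, with median log2 fold changes of -1.34 and -2.50. Their mean level per array ran from 10.82 to 11.04 in control, 9.06 to 9.07 in Pax3 and 8.04 to 8.25 in Pax7 arrays. Of all genes, 19.7% fell in Pax3 and 21.5% in Pax7 arrays. In these bulk samples, fewer cells of a type and less RNA per cell cannot be told apart. The markers stepped down again from Pax3 to Pax7 arrays, where 9 of 10 fell, beside 8.54% of all genes. Dll1, Jag2 and Hes6 shared that step, while Notch1 and Hes1 went the other way. What part differentiation had in the Notch differences was not tested.

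Markers of other cells that can carry Notch genes were examined in the same way. Of 6 pericyte and vascular smooth muscle markers, 4 fell and 0 rose in each contrast against control. Their mean level per array was 6.45 to 6.54 in control, 5.85 to 5.97 in Pax3 and 5.79 to 5.85 in Pax7 arrays. The share called was 66.7% in each contrast, beside 39.6% of all genes in Pax3 and 43.2% in Pax7 arrays. Rgs5, Pdgfrb and Abcc9, which fell, averaged 6.37 or less in every group, below the array medians of 6.397 to 6.477. Cspg4, a proteoglycan of pericytes, was the only marker of this list above those medians. It went from 9.84 to 7.69 in Pax3 and 7.41 in Pax7 arrays, while the smooth muscle myosin Myh11 stood at 5.92, 5.92 and 5.91. The part of such cells in the fall of Notch3 and Heyl was not tested. Endothelial markers gave 1 rise of 6 in Pax3 and 2 of 6 in Pax7 arrays, with mean levels of 5.16 to 5.26 in control, 5.28 to 5.39 in Pax3 and 5.41 to 5.44 in Pax7 arrays, and no fall. Fibroblast markers gave 1 rise of 6 in each contrast, with mean levels of 5.15 to 5.21 in control, 5.23 to 5.46 in Pax3 and 5.23 to 5.38 in Pax7 arrays. Of 5 measured leukocyte markers, 1 rose in each (Cd68), with mean levels of 5.40 to 5.58, 5.80 to 5.86 and 5.94 to 5.99 in control, Pax3 and Pax7 arrays. Of 4 measured Schwann and neural crest markers, 1 fell in each (Erbb3), with mean levels of 6.66 to 6.74, 6.42 to 6.59 and 6.58 to 6.62. The endothelial, fibroblast, leukocyte and Schwann lists had 16.7%, 16.7%, 20% and 25% called in Pax3 arrays. In Pax7 arrays the shares were 33.3%, 16.7%, 20% and 25%, and all these shares were below those of all genes. No gene reads 0 on this scale, so absence of a marker could not be shown.

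Beyond the 10 members, 54 further genes of the pathway were listed by role and 49 were measured. They did not fall as a body, but the list holds inhibitors as well as activators. Some of its genes, such as Rbpj and Hey2, read low in every group, where a fall may not be measurable. In Pax3 arrays 11 rose, 12 fell and 26 did not pass, and the median over the 49 was 0.0387. In Pax7 arrays 16 rose, 13 fell and 20 did not pass (median 0.0327). Between Pax7 and Pax3 arrays 7 were higher and 4 lower, 22.4% of the 49 beside 16.9% of all genes. The share called was 46.9% in Pax3 and 59.2% in Pax7 arrays, beside 39.6% and 43.2% of all genes.

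**Figure D3:**
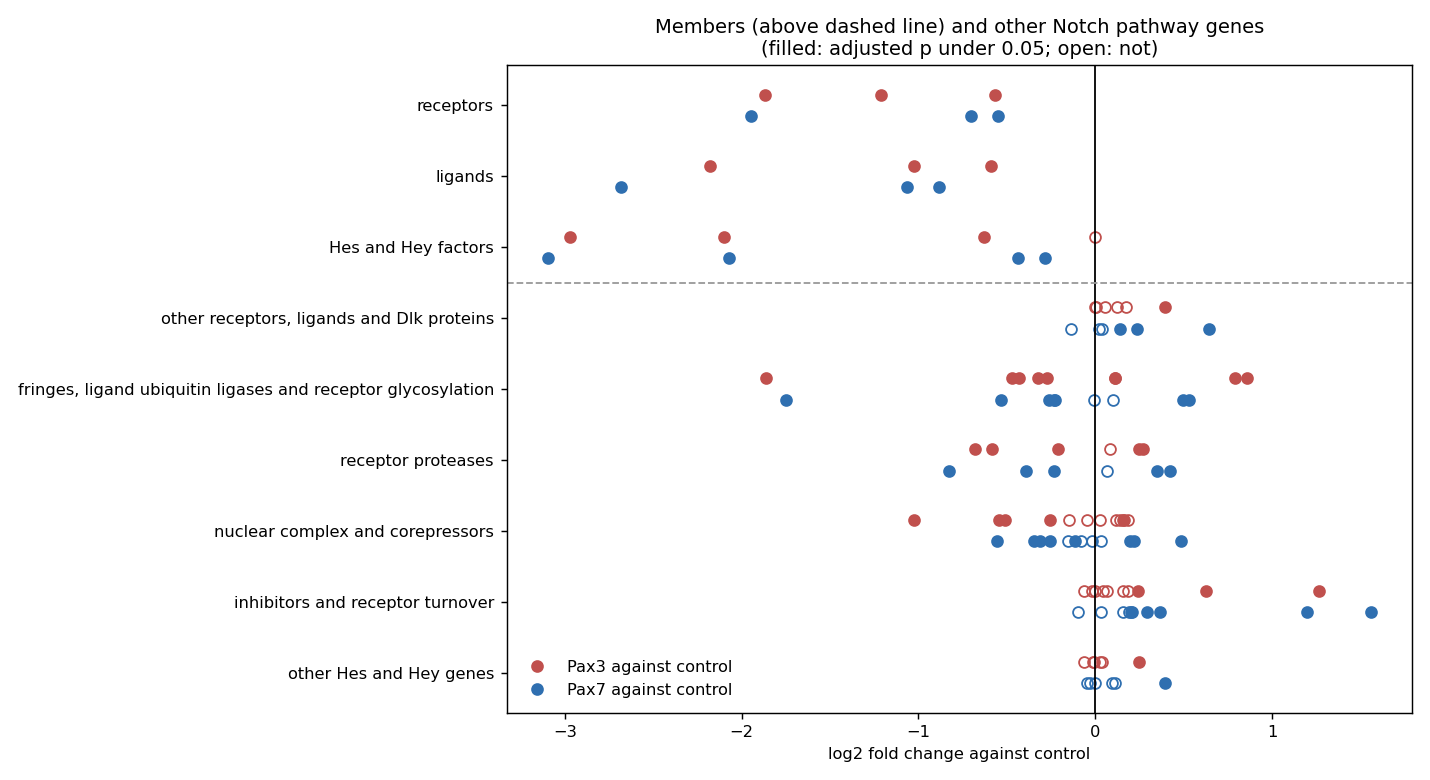
Log2 fold change against control of the members (above the dashed line) and of the other pathway genes by role, in Pax3 (red) and Pax7 arrays (blue); filled points passed an adjusted p of 0.05. The members lie at or below 0, down to -3.10 for Hey1, while the other lists lie on both sides of 0, from Lfng at -1.86 to Bend6 at 1.56.

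Of the genes that modify receptors and ligands, Lfng fell most. Lfng, a fringe glycosyltransferase that changes which ligands a Notch receptor answers to, read 10.69, 10.75 and 10.79 in control, 8.88, 8.99 and 8.78 in Pax3 and 9.07, 8.98 and 8.93 in Pax7 arrays. It changed by -1.86 ± 0.061 in Pax3 arrays and by -1.75 ± 0.061 in Pax7 arrays (limma adjusted p = 1.58e-09 and 1.45e-09), and no control array overlapped the others. Poglut1, which adds glucose to Notch receptors, also fell, by 0.47 and 0.53 on the log2 scale. The ubiquitin ligases Neurl1b and Mib2, which act on the ligands, rose instead. Neurl1b was 0.86 higher in Pax3 and 0.53 higher in Pax7 arrays, and Mib2 0.79 and 0.50 higher, and both were lower in Pax7 than in Pax3 arrays (limma adjusted p = 0.0109 and 0.000369). Over this list of 9, 3 rose and 5 fell in Pax3 arrays, and 2 rose and 5 fell in Pax7 arrays. The shares called were 88.9% and 77.8%, beside 39.6% and 43.2% of all genes.

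Receptor proteases gave 2 rises and 3 falls of 6 measured genes in each contrast against control. The share called was 83.3% in each, beside 39.6% of all genes in Pax3 and 43.2% in Pax7 arrays. Furin, which cuts the receptor on its way to the surface, fell by 0.68 in Pax3 and 0.82 in Pax7 arrays. Psen2, a catalytic subunit of gamma-secretase, fell by 0.58 and 0.39. Adam10, the protease that cuts ligand-bound receptors, was 0.27 and 0.42 higher, and the gamma-secretase subunit Ncstn 0.25 and 0.35 higher. Each of these 4 passed in both contrasts (limma adjusted p of at most 0.00188).

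In the nuclear complex, the corepressor Tle4 read 8.03, 8.07 and 8.00 in control, 7.07, 7.28 and 6.67 in Pax3 and 7.93, 7.85 and 7.86 in Pax7 arrays. Pax3 arrays alone were low: Tle4 changed by -1.02 ± 0.118 in Pax3 arrays (limma adjusted p = 3.4e-05) and by -0.15 ± 0.118 in Pax7 arrays (adjusted p = 0.342), and the Pax7 against Pax3 difference of 0.87 passed (adjusted p = 0.000416). Its relatives Tle1 (-0.54 and -0.35) and Tle2 (-0.51 and -0.55) fell in Pax3 and Pax7 arrays. The acetyltransferase Kat2b was 0.48 higher in Pax7 arrays (limma adjusted p = 0.000748) and 0.19 from control in Pax3 arrays, which did not pass. Rbpj itself, named here after its values were seen, read 4.44 to 4.57 in control, 4.49 to 4.89 in Pax3 and 4.32 to 4.54 in Pax7 arrays, and did not pass in any comparison (limma adjusted p of 0.333, 0.567 and 0.192). That probe set was not shown to be above background, so these values say nothing of Rbpj expression. Of the 12 measured genes, 1 rose and 4 fell in Pax3 arrays, and 3 rose and 5 fell in Pax7 arrays. The shares called were 41.7% and 66.7%, beside 39.6% and 43.2% of all genes.

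Genes listed as inhibitors or as acting in receptor turnover gave rises and no falls: 3 of 10 rose in Pax3 and 5 of 10 in Pax7 arrays. These shares of 30% and 50% called are near those of all genes, 39.6% and 43.2%. Bend6, a nuclear protein that binds Rbpj and represses Notch targets, read 8.41, 8.38 and 8.33 in control, 9.79, 9.65 and 9.50 in Pax3 and 9.96, 9.856 and 9.997 in Pax7 arrays. Its control arrays were lowest, and it rose by 1.27 ± 0.070 in Pax3 and 1.56 ± 0.070 in Pax7 arrays (limma adjusted p = 8.77e-08 and 1.08e-08). Dtx4, a Deltex ubiquitin ligase, read 8.95, 8.99 and 8.90 in control, 9.52, 9.61 and 9.59 in Pax3 and 10.13, 10.15 and 10.15 in Pax7 arrays. The groups formed separate steps upward, and Dtx4 was 0.57 ± 0.043 higher in Pax7 than in Pax3 arrays (limma adjusted p = 5.84e-06). Its relative Dtx2 was 0.24 and 0.37 higher than in control. Nrarp, a feedback inhibitor that Notch induces, was -0.0038 ± 0.072 from control in Pax3 arrays (adjusted p = 0.977) and 0.29 ± 0.072 higher in Pax7 arrays (limma adjusted p = 0.0064). It averaged only 6.09 in control arrays, below the lowest array median of 6.397. The median is not a measured background level. Of the pericyte markers below it, Rgs5, Pdgfrb and Abcc9 fell in both contrasts against control, while Kcnj8 and Myh11 did not. Whether a fall of Nrarp could be measured was not tested, so the missing fall does not show that its expression held.

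The remaining receptors, ligands and Hes and Hey genes showed small differences and no falls past the test against control. Of Notch4, Dll3, Dll4, Dlk1, Dlk2 and Dner, 1 rose in Pax3 and 3 in Pax7 arrays. Dner, a Delta-like membrane protein, was 0.40 and 0.64 higher, Dlk1 was 0.24 higher in Pax7 arrays and Dll4 0.14 higher there. Of Hes2, Hes3, Hes5, Hes7, Hey2 and Helt, 1 passed in each contrast: Hes7, the oscillating repressor of the embryonic segmentation clock, was 0.25 and 0.39 higher. Each of these lists had 16.7% of its 6 genes called in Pax3 arrays, and 50% and 16.7% in Pax7 arrays, beside 39.6% and 43.2% of all genes. Several read low in every group, Hey2 for one at 4.72 to 4.78 on average, so the missing falls say nothing of their expression.

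The members' profiles over the 9 arrays were also set against each other, as the root mean square distance between log2 values centred on each gene's mean. Notch2 and Hes1 were the closest pair (0.0832), followed by Notch3 and Heyl (0.152). The values were not scaled, so closeness depends on the size of a change as well as its pattern. The group means of Notch2 and Hes1 spanned only 0.57 and 0.63 log2 units. Among all genes, those nearest to Notch3 were Spats2l (0.064), Ckb (0.0691) and Casz1 (0.0694). Nearest to Dll1 were Klhl31 (0.0798), Pde2a (0.0807) and Fndc1 (0.0943), and to Notch1 Sqle (0.074), Gse1 (0.075) and A4galt (0.0858). Hey1 had Csrp2 (0.126), Tmem35a (0.140) and Ndn (0.143), Heyl had Uchl1 (0.110), Dock10 (0.113) and Tnfsf15 (0.118), and Jag1 had Nxpe3 (0.0728), Pcdh19 (0.0786) and Fam13b (0.0789). These distances describe 9 arrays in 3 groups, and most of each profile is the step from control to the Pax arrays.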

How the data were processed

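Per the submitters' processing notes and the labels, biotin-labelled total RNA was hybridised to Affymetrix arrays, and the authors deposited log2 intensities made with RMA in R 2.10.0 (25668 probe sets, values of 1.93 to 13.2). Genome build, annotation and earlier filters: not given in the sources used here. Probe sets were named through GEO's platform table (20777 probe sets with 1 symbol, 232 with several, 4659 with none). Where a gene had several, the one brightest on average was kept. Each of the 10 members had 1.

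Group means were fitted to all 9 arrays and 19661 genes in limma 3.58.1 under R 4.3.3 (moderated test, no trend; residual df 6, prior df 4.37). Benjamini-Hochberg adjustment ran over all genes, with a threshold of 0.05. No filter on low values was used. Fold changes have moderated standard errors, and group means have SDs of 3 arrays. The fit was tested on simulated data.

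The members and gene lists were chosen with earlier results of these data known. Named genes are the members, up to 4 genes per pathway list with the largest change past the threshold against control, the marker genes and the 3 nearest profiles of each member whose group means span 1 log2 unit or more. Rbpj, Hey2 and genes listed only by name lie outside this rule.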

Additional observations from a re-analysis of the deposited data

How the results depend on the processing

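The alternatives were a filter on the lowest 50% of genes, centring of arrays on their medians, the mean over probe sets, a trend, a robust prior, a fit of only the 2 groups compared, treat at 1.2-fold, a replicate block and leaving out each array. Falls of the members against control kept direction and call under each of these wherever the gene was still tested, except Hes6 in Pax7 arrays under treat. The filter removed Jag1 and Heyl.

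With treat, calls dropped to 12 of the other pathway genes and 3264 of all genes for Pax3 against control, and to 10 and 3819 for Pax7 against control. For Pax7 against Pax3 they dropped to 1 member, 2 other pathway genes and 784 genes in all, and Notch1, Jag2, Hes1 and Hes6 were no longer called. Leaving out 1 array gave 7 to 14 other pathway genes for that comparison, the lowest without Pax7 replicate 1 or Pax7 replicate 3.

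Signs turned only in differences that did not pass. Leaving out 1 array gave -0.067 to 0.0571 for Hes6 in Pax3 against control, and in Pax7 against Pax3 -0.0233 to 0.0584 for Notch2, -0.1506 to 0.0224 for Jag1 and -0.049 to 0.1381 for Heyl. The turned values lay within these ranges.

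Whether the replicate numbers pair the arrays was not settled. Deviations from group means correlated above 0.1 in 3 of 9 same-numbered pairs (r from -0.026 to 0.225). Among 18 pairs with different numbers, 3 did (r from -0.247 to 0.246). With the replicate block, 9, 10 and 5 members were called, and 7902, 8707 and 3328 genes in all.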
